A study of Rattus norvegicus with 10 samples.

Results

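Genes for enzymes and machines that act on chromatin were followed in the prefrontal cortex of 10 untreated male Lewis rats, an inbred strain. Members were the genes whose single symbol in the array's annotation begins with Kdm, Kmt, Hdac, Setd, Smarc or Ezh, or with Kat, Brd or Chd and a digit, each read by its probe set of highest mean over the 10 arrays. The rule gave 81 of the 14217 genes that carry a single symbol on the array, and 154 of its 31042 probe sets. It also took in Brd3os, a transcript named for its place opposite Brd3 and not a bromodomain gene. Each rat gave 1 array of RNA from a frontal piece labelled as Fr1 and Fr2, dissected as bulk tissue without the olfactory bulb, and was killed 6 days after its last behaviour test. All 10 rats have scores for locomotion, sugar feeding, acoustic startle and prepulse inhibition, the damping of startle by a weaker sound just before it, and 7 have a plus maze score. No score has a stated unit, no age is given, and there is no treated group, so each score was set against expression as a number.

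DNA in the nucleus is wound on histones, and chromatin genes set how open that packaging is. Kat enzymes add acetyl groups to histones and Hdac enzymes take them off. Most Kmt, Setd and Ezh enzymes add methyl groups to lysines and Kdm enzymes remove them. Brd proteins carry bromodomains, which bind acetylated lysines. Smarc and Chd proteins belong to machines that use ATP to slide or evict nucleosomes. In neurons the subunit make-up of the Smarc machine known as SWI/SNF changes as cells leave the cell cycle, and several of these genes, among them CHD8, SETD5, SETD1A and KMT2A, are known in humans from neurodevelopmental disorders.

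Most members have a promoter rich in the dinucleotide CG, as most tested genes of the array do. RefSeq promoter windows on GRCr8, from 250 bases before to 50 after the gene start, were matched to 69 members. The number of CG, which reads the same on both strands, had a median of 25 per window (lowest 2, highest 56) in members, against 22 in the windows of 7103 tested genes of the array. At least 10 were found in 94.2% of member windows, against 87.0% of those of tested genes and 41.5% of all 33469 windows in the table. The 56 windows of tested members alone had a median of 26.5, and 94.6% held at least 10. The windows of Kdm2b and Chd4 are shown because these genes had the smallest p with startle in the negative and the positive direction, and because the Kdm2b protein binds unmethylated CG through a zinc finger. Capitals mark each CG. The Kdm2b window (GRCr8 chr12:39235228-39235527, plus strand) held 27 and the Chd4 window (GRCr8 chr4:159584568-159584867, plus strand) held 33.
Kdm2b: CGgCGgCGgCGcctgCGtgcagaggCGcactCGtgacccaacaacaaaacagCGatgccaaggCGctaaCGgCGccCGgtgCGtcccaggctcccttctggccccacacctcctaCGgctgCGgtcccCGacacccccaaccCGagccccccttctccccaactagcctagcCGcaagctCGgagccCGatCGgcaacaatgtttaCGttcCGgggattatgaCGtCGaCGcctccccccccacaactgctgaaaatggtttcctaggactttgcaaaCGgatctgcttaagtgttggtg
Chd4: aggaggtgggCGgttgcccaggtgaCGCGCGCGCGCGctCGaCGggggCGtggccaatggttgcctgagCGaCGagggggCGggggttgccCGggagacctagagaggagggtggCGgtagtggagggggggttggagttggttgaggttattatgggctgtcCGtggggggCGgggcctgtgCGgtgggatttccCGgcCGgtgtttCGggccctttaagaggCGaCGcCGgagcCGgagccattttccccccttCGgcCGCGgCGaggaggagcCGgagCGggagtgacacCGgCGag

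The values are log2 summaries per probe set, and a difference of 1 is a doubling. The upper 50% of probe sets by mean, 15521 with a mean of at least 3.985, were tested, and 67 of the 81 members were among them. Markers were set beside the tissue label. All 10 measured markers of cortical excitatory neurons passed the filter, and 0 of 4 for choroid plexus and 1 of 4 for the olfactory bulb did. Markers from lists for other tissues passed too, among them 6 of 8 measured for the meninges. Of 15 measured striatal markers 12 passed, and Adora2a, Tac1 and Isl1 did not. Foxp1, Meis2 and Pde10a of this list were high in every rat, with lowest values of 11.08, 11.26 and 11.67. Drd1 ran from 5.79 in rat 3 to 9.60 in rat 7. Passing the filter therefore does not tell tissue from outside the cortex apart from expression within it. The mean of the 12 differed between rats from -0.48 in rat 3 to 1.20 in rat 7, with rats 4 and 10 at 0.73 and 0.39. The mean of the myelin markers ran from -0.58 in rat 3 to 0.46 in rat 7. On the linear scale the sums over the measured markers ran over the rats from 11612 to 27568 for the striatal list, 33147 to 59195 for the myelin list and 1208 to 5910 for the meningeal list. In bulk tissue fewer cells of a type and less RNA per cell cannot be told apart. The spike-in controls, which are added to every sample, ran from 11.23 in rat 10 to 12.14 in rat 2. Array number limits the precision: the SE of a member's slope had a median of 0.04 log2 per SD of the score for startle.

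The tested members varied between rats about as much as other genes. All 67 spanned less than 2-fold from the lowest to the highest rat, and a span over 2-fold was found in 4.36% of all tested genes taken 1 probe set each, as the members are, and in 9.29% of all tested probe sets. Their median SD over the 10 rats was 0.12 log2, against 0.13 for all tested probe sets and 0.12 for tested genes. Families had median SDs from 0.10 for the Hdac, Brd and Chd genes to 0.15 for the Kdm genes.

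**Figure D1:**
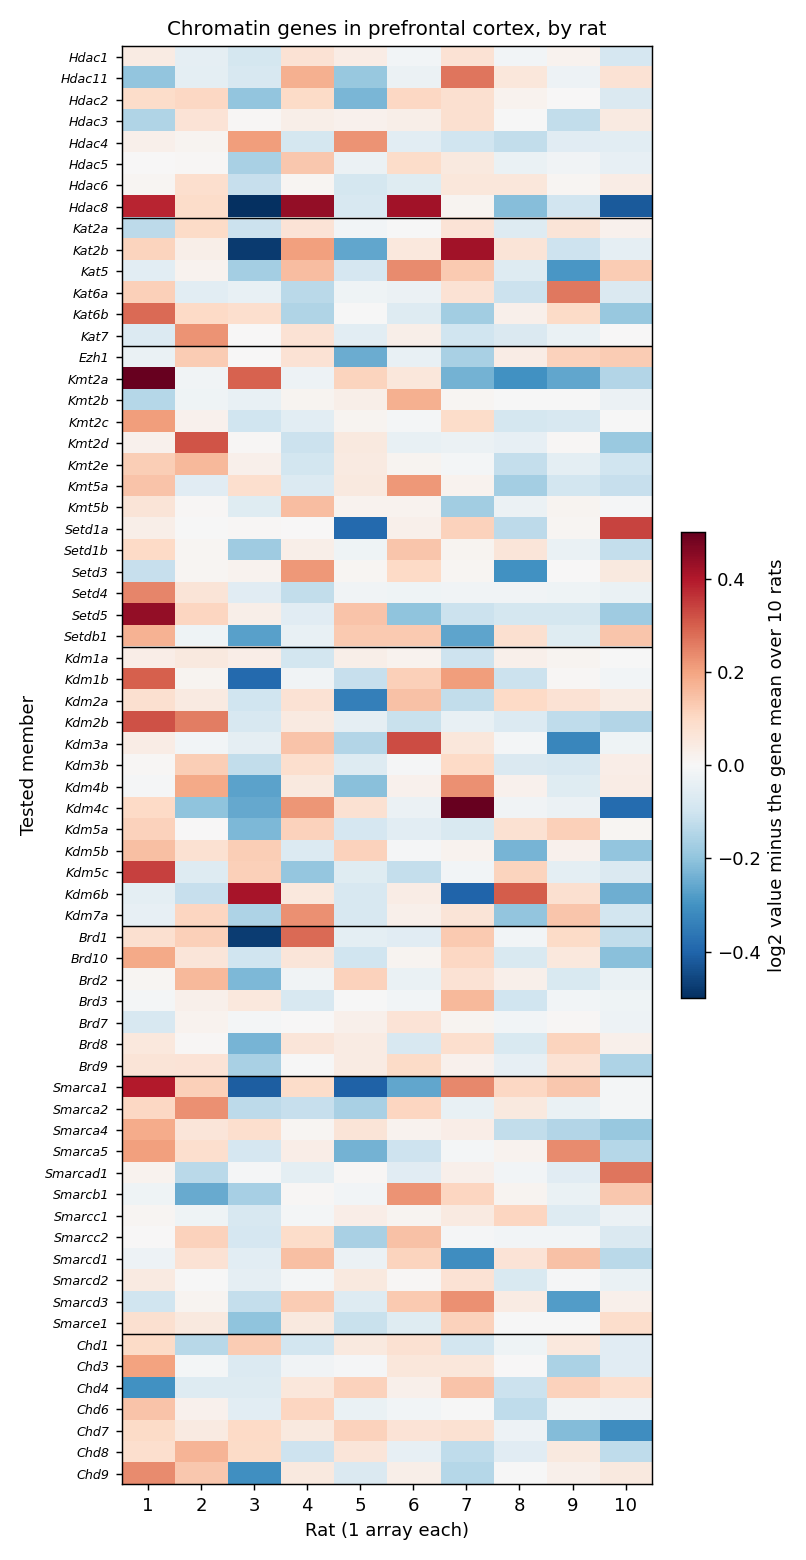
Log2 value of each of the 67 tested members (rows, grouped by family) in each of the 10 rats (columns), minus that gene's mean over the rats. Red is above and blue below the mean, colours stop at 0.5 in either direction, and rat 3 is the lowest rat for 20 members while rat 1 is the highest for 16.

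The acetylation genes held both quiet and variable members. Hdac8, a class I deacetylase that also acts on the cohesin ring, had the widest spread, with a lowest value of 6.22 in rat 3, a median of 6.72 and a highest of 7.19 in rat 4 (mean 6.75 ± 0.34 SD, n = 10), a 1.96-fold span. Rats 4, 6 and 1 stood together at the top, at 7.19, 7.17 and 7.13. The class I genes Hdac1, Hdac2 and Hdac3, the catalytic subunits of corepressor complexes, had SDs of 0.06, 0.13 and 0.08. Hdac1 spanned 1.12-fold at a mean of 5.22, and its other tested probe set 1.36-fold at a mean of 4.87. Hdac2 spanned 1.26-fold. Hdac4 and Hdac5, class IIa enzymes that shuttle between nucleus and cytoplasm, spanned 1.27-fold and 1.23-fold. Hdac6, whose main substrate is tubulin, spanned 1.15-fold, and Hdac11, the class IV enzyme, 1.38-fold. Among acetyltransferases Kat2b, also called PCAF, ran from 6.81 in rat 3 through a median of 7.33 to 7.71 in rat 7, a 1.86-fold span. Its paralog Kat2a, the GCN5 enzyme, spanned 1.17-fold. Kat5, the TIP60 enzyme, ran from 7.36 in rat 9 to 7.89 in rat 6. Kat6a, Kat6b and Kat7, all of the MYST family, spanned 1.32-fold, 1.39-fold and 1.25-fold.

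Among methylation genes Kmt2a, Kdm4c, Kdm6b and Setd5 had the largest SDs, 0.26, 0.26, 0.24 and 0.19. Kmt2a, the MLL1 methyltransferase of active promoters, was lowest at 6.43 in rat 8, had a median of 6.71 and was highest at 7.26 in rat 1. Rats 1 and 3, at 7.26 and 7.02, stood above the other 8, which lay from 6.43 to 6.84. Kdm4c, Kdm1b and Setd4 had means of 4.70, 4.85 and 4.93, not far above the filter. Kdm4c, a demethylase of a repressive mark, ran from 4.31 in rat 10 through 4.67 to 5.22 in rat 7, a 1.87-fold span. Kdm6b, which removes the methyl mark laid down by Ezh enzymes, went the other way in rat 7: it was lowest there at 7.87, had a median of 8.27 and was highest at 8.68 in rat 3. Setd5 had its highest value, 10.67, in rat 1 and its lowest, 10.03, in rat 6. The steadiest of the group was Kdm1a, the demethylase LSD1 of corepressor complexes, with values from 8.08 to 8.24 and an SD of 0.05. Ezh1, the Polycomb methyltransferase of mature cells, ran from 7.92 in rat 5 to 8.29 in rat 10. Among the other demethylase genes Kdm1b and Kdm3a spanned 1.61-fold and 1.57-fold, and Kdm2a, Kdm2b, Kdm3b, Kdm4b, Kdm5a, Kdm5b, Kdm5c and Kdm7a from 1.19-fold to 1.45-fold. Setd1a spanned 1.65-fold. Of the other methylation genes Kmt2b, Kmt2c, Kmt2d, Kmt2e, Kmt5a, Kmt5b, Setd1b, Setd3, Setd4 and Setdb1 spanned from 1.21-fold for Kmt2e to 1.43-fold for Setd3, whose main substrate is actin.

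Among readers and remodellers, Smarca1, an ISWI ATPase, spanned 1.75-fold, with 7.71 in rats 3 and 5, a median of 8.21 and 8.51 in rat 1. Brd1, a scaffold of acetyltransferase complexes, was lowest at 7.79 in rat 3 and highest at 8.55 in rat 4, and the other 8 rats lay from 8.14 to 8.39. Brd7, a SWI/SNF subunit, was the steadiest of all tested members, from 8.51 to 8.66 with an SD of 0.04. Smarcd2 and Smarcc1 had SDs of 0.05 and 0.05 at means of 4.61 and 4.72, not far above the filter. The alternative SWI/SNF ATPases Smarca4 (BRG1) and Smarca2 (BRM) spanned 1.30-fold and 1.31-fold, and the core subunit Smarcb1 1.39-fold. Chd8 spanned 1.23-fold, and Chd3 and Chd4, ATPases of the NuRD corepressor, 1.29-fold and 1.36-fold. The BET readers Brd2 and Brd3 spanned 1.31-fold and 1.20-fold, and Brd8, Brd9 and Brd10 from 1.20-fold to 1.32-fold. Chd1, Chd6, Chd7 and Chd9 spanned from 1.20-fold to 1.46-fold, and Smarca5, Smarcad1, Smarcc2, Smarcd1, Smarcd3 and Smarce1 from 1.24-fold to 1.42-fold.

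**Figure D2:**
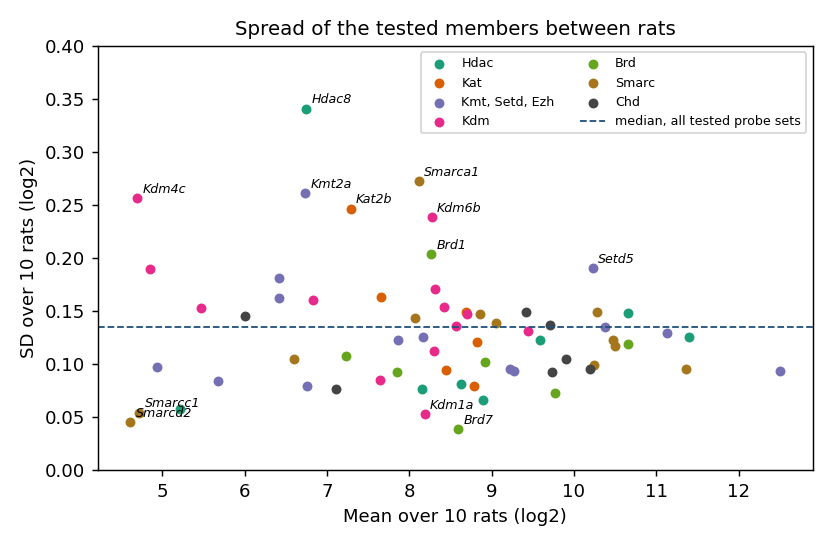
SD over the 10 rats against mean over the 10 rats (both log2) for each tested member, coloured by family, with the dashed line at the median SD of all tested probe sets, 0.13. Hdac8 has the highest SD, 0.34, and Brd7 the lowest, 0.04.

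The rat of highest and of lowest level differed between families. The mean of the members, each centred on its own mean, was highest in rat 1 at 0.08 and lowest in rat 3 at -0.08. Over all tested probe sets the same means were 0.04 and -0.05, and rat 2 was highest at 0.07. Rat 1 was the highest rat for 23.9% of members, against 13.0% of all tested probe sets. Rat 3 was the lowest for 29.9% of members, against 23.8%. By family mean rat 1 was highest for the Kmt, Setd and Ezh genes (0.13), the Kdm genes (0.11), the Chd genes (0.08) and the Smarc genes (0.08), rat 4 for the Hdac genes (0.11) and rat 7 for the Brd and Kat genes (0.08 and 0.07). Rat 3 was lowest for the Brd, Hdac, Kat and Smarc genes (-0.16, -0.12, -0.12 and -0.11), rat 10 for the Kdm and Chd genes (-0.08 and -0.06) and rat 8 for the Kmt, Setd and Ezh genes (-0.08). Rats 1 and 2 also had the lowest startle (394 and 363) and the lowest prepulse inhibition (6.80 and 10.7), so these 2 arrays weigh on the slopes of both scores.

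The startle comparison asked which of these transcripts track the size of the response to a loud sound. Here and below a slope gives log2 units per SD of the score and was fitted with limma and adjusted over all 15521 probe sets. Of the 67 tested members 0 passed an adjusted p of 0.05, as did 0% of all tested probe sets. An unadjusted p under 0.05 was reached by 3 members (4.48%), against 5.59% of all tested probe sets and 5.14% of tested genes. The slope was positive in 1 of these 3 and negative in 2. Of the 867 tested probe sets that reached it, 199 had a positive slope and 668 a negative one (1.28% and 4.30% of all tested). Slopes were negative for 48 of 67, with a median of -0.027, against -0.015 for all tested probe sets. In 62 of 67 the slope was under 0.1 in size. Beside these, the slopes of 14 of 14 tested myelin markers (median 0.11) and 11 of 12 striatal markers (median 0.12) were positive. With the striatal score as a covariate 2 members (2.99%) had an unadjusted p under 0.05, against 4.32% of all tested probe sets. The part of myelin was not tested.

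Kdm2b, a demethylase that recruits a Polycomb complex to CG-rich promoters, had the smallest p of the members with startle. It stood at 7.15 and 7.09 log2 in rats 1 and 2, at 6.88 in rat 4 and between 6.69 and 6.79 in the other 7 rats. The 3 rats of lowest startle thus held its 3 highest values. The slope was -0.13 ± 0.03 (SE, n = 10; p = 0.00189, limma adjusted p = 0.808), rank 16 of all tested probe sets by p. It lay from -0.15 to -0.10 when single rats were left out, and was -0.11 after quantile normalization and -0.04 with all 4 scores in 1 model.

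Chd4 had the smallest p on the positive side, with a slope of 0.10 ± 0.03 (p = 0.0138, limma adjusted p = 0.808). It was lowest at 9.41 in rat 1, had a median of 9.75 and was highest at 9.85 in rat 7, the rat of highest startle. Without rat 1, which stood apart, the slope was 0.06. The other tested Chd4 probe set had a slope of -0.01. Setd5 had -0.12 ± 0.05 (p = 0.0284, limma adjusted p = 0.808), and its slope was -0.06 without rat 1. Of its 2 other probe sets, 1 had the same sign (-0.05) and 1 the opposite (0.06). The other positive slopes named by the rule were those of Smarcb1 (0.08 ± 0.04), Kmt2b (0.04 ± 0.03), Kat6a (0.04 ± 0.04) and Hdac11 (0.05 ± 0.05). Negative ones were those of Chd9 (-0.08 ± 0.04), Kmt2a (-0.13 ± 0.07) and the MYST acetyltransferase gene Kat6b (-0.07 ± 0.04).

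By family the Kdm genes had negative startle slopes in 12 of 13 tested members (median -0.027), with Kdm4c the exception at 0.05. The Kmt, Setd and Ezh genes were negative in 10 of 14 (median -0.042), the Smarc genes in 8 of 12 (median -0.022) and the Chd genes in 5 of 7 (median -0.039). Hdac genes were negative in 5 of 8 (median -0.0081) and Kat genes in 4 of 6 (median -0.0062), and Brd genes in 4 of 7. This balance moved with the scaling of the arrays. With the deposited values positive slopes were 28.4% of members, against 37.7% of all tested probe sets and 41.3% of tested genes. After quantile normalization they were 55.2% of members and 56.6% of all tested probe sets.

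**Figure D3:**
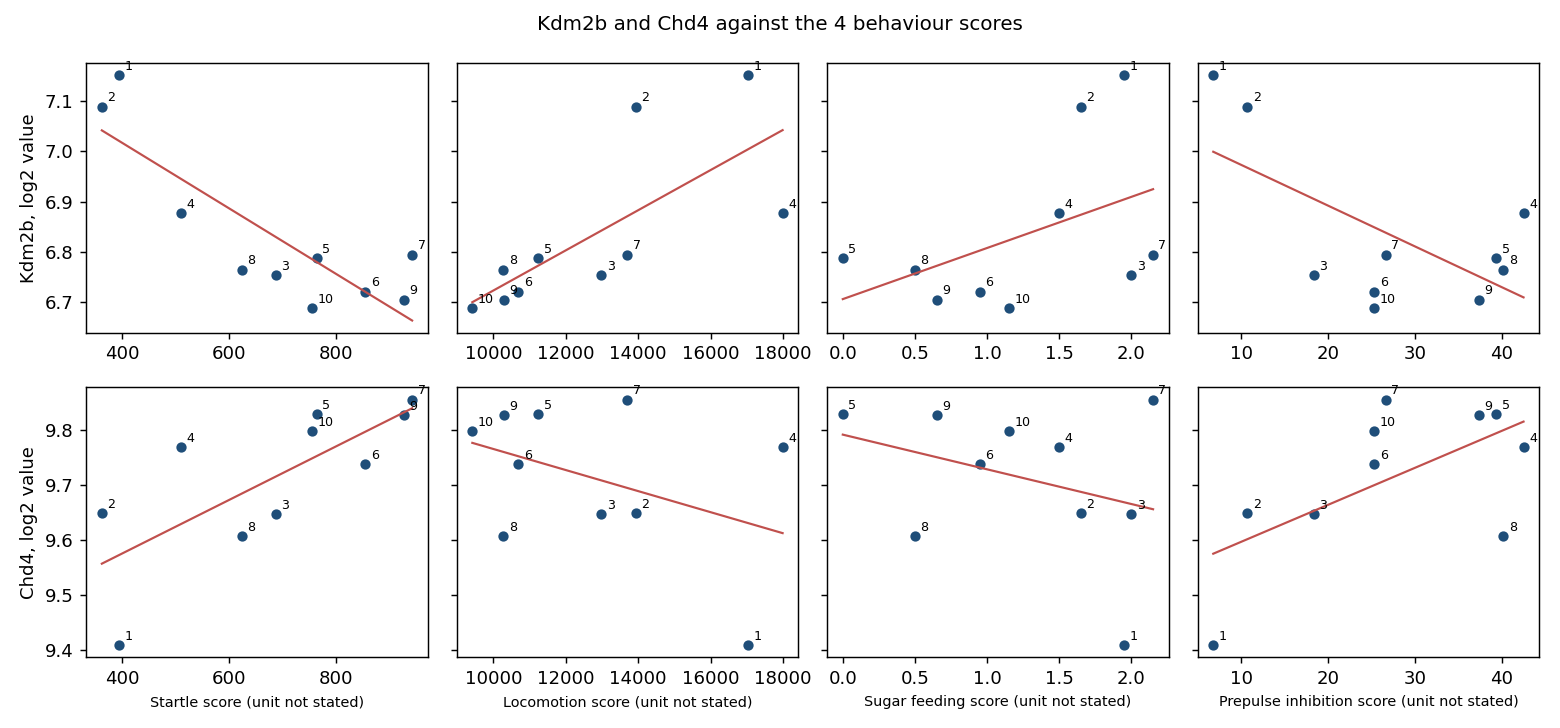
Log2 value of Kdm2b (top row) and Chd4 (bottom row) in the 10 rats against startle, locomotion, sugar feeding and prepulse inhibition scores (units not stated), with rat numbers and the fitted line. Rats 1 and 2 hold the highest Kdm2b values, 7.15 and 7.09, and rat 1 the lowest Chd4 value, 9.41.

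The locomotion comparison asked which of these transcripts track movement. With this score 0 members passed, as did 0% of all tested probe sets, and 5 members (7.46%) had an unadjusted p under 0.05, against 2.93% of all tested probe sets. All 5 slopes were positive. Of the 455 tested probe sets that reached it, 359 had a positive slope and 96 a negative one (2.31% and 0.619% of all tested). After quantile normalization 2 members (2.99%) reached it, against 2.98% of all tested probe sets. Without rat 1 the count was 0, against 3.22%, and without rat 4 it was 12, against 8.38%. Kdm2b was first again, at 0.12 ± 0.04 (SE, n = 10; p = 0.0124, limma adjusted p = 1.00). The same rats 1, 2 and 4 that hold its highest values had the highest locomotion scores. Chd6 had 0.06 ± 0.02, with values from 6.99 in rat 8 to 7.26 in rat 1, and its other probe set had 0.13. Brd10 had 0.08 ± 0.03, with its lowest value, 10.45, in rat 10 and its highest, 10.85, in rat 1. Smarca4 had 0.08 ± 0.03, from 10.31 in rat 10 through a median of 10.53 to 10.69 in rat 1. The 2 other Smarca4 probe sets had slopes of 0.03 and -0.04.

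Hdac8 had the steepest slope with locomotion, 0.20 ± 0.09, or 1.15-fold per SD (p = 0.0430, limma adjusted p = 1.00). Rats 4 and 1, the most active, stood at 7.19 and 7.13, but rat 6, with a low score of 10692, stood at 7.17. The spike-in level was lowest in rat 10, which also had the lowest locomotion score. With that level as a covariate the slopes of Hdac8 and Kdm2b were 0.02 and 0.06. In that setting 0 members had an unadjusted p under 0.05, against 1.37% of all tested probe sets. Negative slopes were smaller: -0.06 ± 0.04 for Chd4, -0.03 ± 0.03 for Kmt2b, -0.04 ± 0.05 for Smarcb1, -0.02 ± 0.02 for Kdm1a and -0.01 ± 0.02 for Brd7. Chd4's was near 0 without rat 1.

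Locomotion slopes were positive in 52 of 67 members, with a median of 0.027, against 0.014 for all tested probe sets. They were positive in 11 of 13 Kdm genes, 10 of 14 Kmt, Setd and Ezh genes, 9 of 12 Smarc genes, 7 of 8 Hdac genes, 6 of 7 Brd genes, 5 of 7 Chd genes and 4 of 6 Kat genes. Positive slopes were 77.6% of members, against 65.4% of all tested probe sets. After quantile normalization they were 61.2% and 46.0%, and with spike-ins as a covariate 55.2% and 44.6%. All 12 tested striatal markers (median 0.12) and all 8 astrocyte markers (median 0.04) also had positive slopes. With the striatal score as a covariate 6 members (8.96%) had an unadjusted p under 0.05, against 5.16% of all tested probe sets.

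The sugar feeding comparison asked which of these transcripts track intake of a sweet food. No member passed by limma, as 0% of all tested probe sets did, and 0 had an unadjusted p under 0.05, against 2.13% of all tested probe sets, 1.45% with positive and 0.677% with negative slopes. Setd1a, a methyltransferase of active promoters, came closest on the positive side with 0.10 ± 0.05 (SE, n = 10; p = 0.0676, limma adjusted p = 1.00). It was lowest at 6.03 in rat 5, which had a sugar feeding score of 0, had a median of 6.42 and was highest at 6.75 in rat 10. Without rat 5 the slope was 0.03. Brd3, a BET family reader, had 0.04 ± 0.03, Kdm2b 0.07 ± 0.05, Smarca4 0.06 ± 0.04 and Brd10 0.06 ± 0.04.

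On the negative side Setdb1, a methyltransferase that silences repeated elements, had -0.09 ± 0.05 (p = 0.0810, limma adjusted p = 1.00). Its lowest values, 6.15 and 6.16, were those of rats 3 and 7, the rats of highest sugar feeding, but rat 1, at a score of 1.95, had the highest, 6.59. Smarcd1, a SWI/SNF subunit, had -0.06 ± 0.04, and -0.02 without rat 7. Kmt2b had -0.03 ± 0.03, Chd4 -0.05 ± 0.04 and Kdm1a -0.02 ± 0.02. Slopes were positive in 45 of 67 members (67.2%, median 0.026), against 58.4% of all tested probe sets (median 0.0082) and 61.4% of tested genes. After quantile normalization they were positive in 58.2% of members and 47.4% of all tested probe sets. The Brd genes were negative in 5 of 7, and every other family had more positive than negative slopes, among them 4 of 7 Chd genes and 10 of 13 Kdm genes. All 6 tested meningeal markers (median 0.27) and all 12 striatal markers (median 0.13) had positive slopes as well, and the part of the meningeal ones was not tested.

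The prepulse inhibition comparison asked which of these transcripts track sensorimotor gating. No member passed by limma, as 0% of all tested probe sets did. An unadjusted p under 0.05 was reached by 4 (5.97%), against 7.41% of all tested probe sets and 6.08% of tested genes. All 4 had negative slopes, and 3 were in the Kmt and Setd families. Of the 1150 tested probe sets that reached it, 845 had a negative slope and 305 a positive one (5.44% and 1.97% of all tested). Kmt2e, the MLL5 reader of active promoters, had -0.07 ± 0.03 (SE, n = 10; p = 0.0209, limma adjusted p = 0.630). Its values ran from 12.39 in rat 8 through a median of 12.51 to 12.66 in rat 2, and its 4 other probe sets had slopes of -0.07, -0.07, -0.03 and -0.02. After quantile normalization the slope was -0.04. Setd4 had -0.07 ± 0.03, and -0.03 without rat 1, in which it was highest at 5.18. Kmt2a had -0.16 ± 0.07 (p = 0.0338, limma adjusted p = 0.649) and -0.07 without rat 1, and Kdm2b had -0.10 ± 0.04 and -0.05 without that rat.

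Rats 1 and 2 had the lowest prepulse inhibition. Rat 1 was the highest rat for Kmt2a, Setd4 and Kdm2b, and rat 2 for Kmt2e. Without rat 1, 0 members had an unadjusted p under 0.05 with this score, against 3.87% of all tested probe sets. Smarca2 was the fifth negative slope, at -0.07 ± 0.04. On the positive side stood Chd4 with 0.08 ± 0.04 (p = 0.0501, limma adjusted p = 0.671) and 0.03 without rat 1, Hdac11 with 0.06 ± 0.05, Kmt2b with 0.03 ± 0.03, Smarcb1 with 0.04 ± 0.04 and Kdm4c with 0.07 ± 0.08. With the striatal score as a covariate 0 members had an unadjusted p under 0.05, against 4.59% of all tested probe sets. In that setting Kmt2e and Kmt2a had slopes of -0.06 and -0.13.

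Prepulse inhibition slopes were negative in 45 of 67 members (median -0.019), against a median of -0.010 for all tested probe sets. The Kmt, Setd and Ezh genes had the lowest family median, -0.057, with 10 of 14 negative. The Chd genes were negative in 6 of 7, the Kdm genes in 9 of 13, the Smarc genes in 8 of 12, the Kat genes in 4 of 6, the Brd genes in 4 of 7 and the Hdac genes in 4 of 8. Positive slopes were 32.8% of members, against 41.3% of all tested probe sets and 44.2% of tested genes. After quantile normalization they were 47.8% of members and 57.1% of all tested probe sets. Slopes were positive in 14 of 14 tested myelin markers (median 0.15) and 11 of 12 striatal markers (median 0.19) and negative in 6 of 6 meningeal markers (median -0.20), and the part of the myelin and meningeal ones was not tested. The 4 comparisons use the same rats, and the scores are themselves related, so the recurrence of Kdm2b, Chd4 and Kmt2b between them is not a repeated observation.

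**Figure D4:**
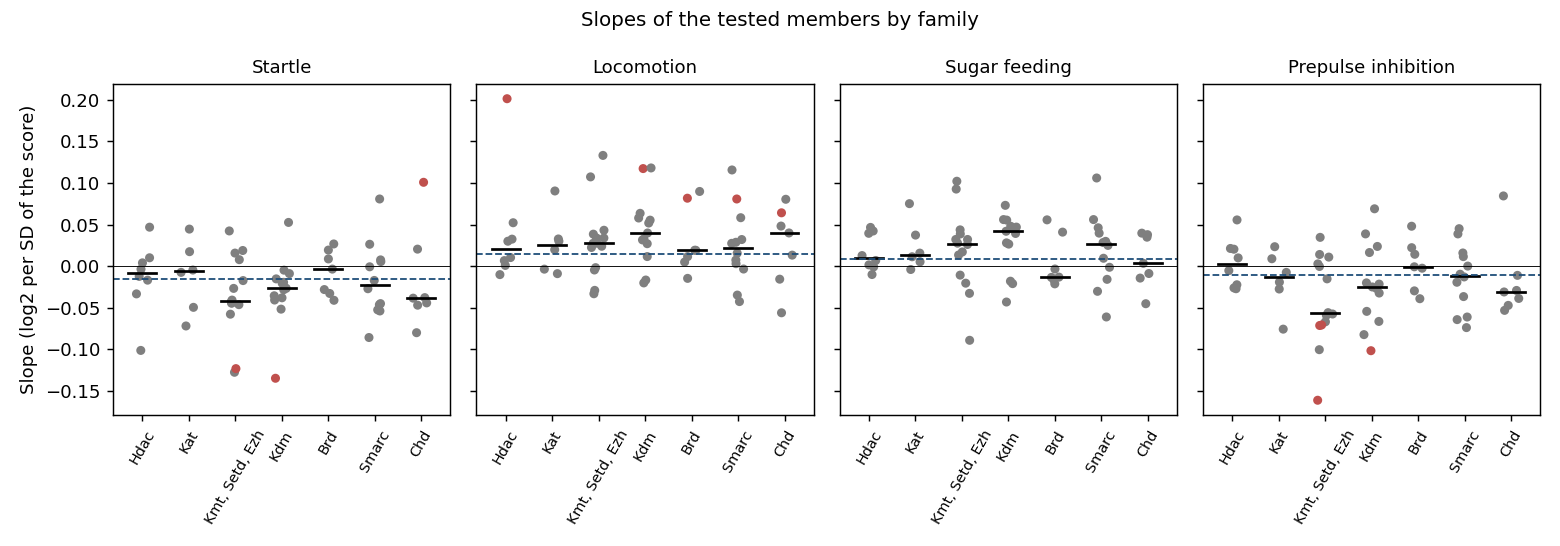
Slope of each tested member with the 4 scores of all 10 rats (log2 per SD of the score), by family, with black bars at family medians and a dashed line at the median of all tested probe sets. Red points had an unadjusted p under 0.05: 3 for startle, 5 for locomotion, 0 for sugar feeding and 4 for prepulse inhibition.

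The plus maze score was known for 7 rats and was led by rat 5, at 60.3, against 20.2 in rat 4 and 12.1 in rat 1. Again 0 members passed by limma, as 0% of all tested probe sets did. An unadjusted p under 0.05 was reached by 6 (8.96%), against 6.95% of all tested probe sets and 7.69% of tested genes. The slope was negative in 5 of these 6 and positive in 1. Of the 1078 tested probe sets that reached it, 891 had a negative slope and 187 a positive one (5.74% and 1.20% of all tested). Kdm4b, a demethylase of a repressive mark, had -0.12 ± 0.04 (SE, limma adjusted p = 0.652) and Setd1a -0.17 ± 0.06. The other 4 of the 6 members were Smarca1 (-0.19 ± 0.06), Hdac4 (0.10 ± 0.03), Kdm2a (-0.12 ± 0.05) and Hdac2 (-0.09 ± 0.04), each with the opposite sign without rat 5. The SWI/SNF subunit gene Smarce1, which kept its sign, was not among the 6 and had -0.07 ± 0.03. Without rat 5 the slopes of Kdm4b, Setd1a and Smarce1 were -0.06, -0.04 and -0.01. In that fit 0 members had an unadjusted p under 0.05, against 2.31% of all tested probe sets. Chd1, Chd7 and Kdm5b had positive slopes of 0.04 ± 0.04, 0.06 ± 0.06 and 0.06 ± 0.06. Positive slopes were 44.8% of members (median -0.0051), against 39.2% of all tested probe sets (median -0.014) and 32.6% of tested genes (median -0.022). Without rat 5 they were 58.2% of members and 53.6% of all tested probe sets. All 12 tested striatal markers (median -0.12) had negative slopes.

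Other probe sets of the same gene were a check on the slopes of members that had them. Of the tested members 24 had more than 1 tested probe set, with 39 others in all. The other 43, among them Kdm2b, Hdac8, Setd4 and Setd1a, had 1 tested probe set each and no such check. The other probe sets had the sign of the chosen one in 23 of 39 for startle, 25 for locomotion, 25 for sugar feeding and 28 for prepulse inhibition. Kdm5a, a demethylase of active promoters, had -0.04 with startle on the chosen probe set but 0.09 and 0.12 on 2 others, and Smarcc2, a core SWI/SNF subunit, had -0.03 against 0.15 on the probe set that differed most. For Smarca5, an ISWI ATPase, all 3 probe sets were negative with startle, at -0.05, -0.08 and -0.04. The second Chd6 probe set had -0.19 ± 0.05 with startle (p = 0.00194, limma adjusted p = 0.808), against -0.04 ± 0.03 on the chosen one.

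Some of these other probe sets varied far more between rats than the chosen ones. A second Kmt2a probe set spanned 3.66-fold, from 5.73 in rat 10 to 7.60 in rat 3, and another 2.23-fold, against 1.77-fold on the chosen one. A second probe set of Kdm5c, an X-linked demethylase gene, spanned 3.33-fold, from 4.40 in rat 10 to 6.13 in rat 1, against 1.45-fold on the chosen one. These 3 were the only ones of the 39 to span over 2-fold. Which part of a gene each probe set reads was not analysed here. Kdm5a, Smarcc2, Smarca5, Kmt2a and Smarca4 fell under the rule for 3 or more probe sets, and Chd6, Chd4 and Kdm5c are given because their probe sets differed most or lead a comparison, a choice made after their values were seen.

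**Figure D5:**
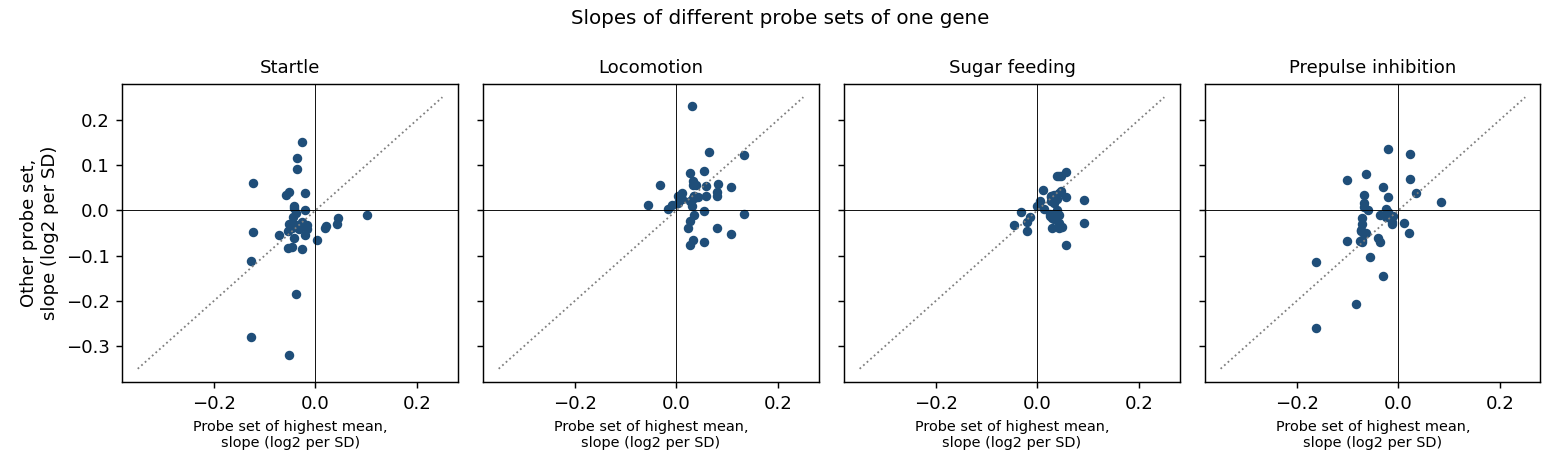
Slope of each of the 39 other tested probe sets against the slope of the chosen probe set of the same gene (both log2 per SD of the score) for the 4 scores, with the dotted line of equality. Points above 0 on 1 axis and below 0 on the other have opposite signs, 16 of 39 for startle and 11 of 39 for prepulse inhibition.

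Partner genes outside the naming rule were set beside the members, and 0 of them passed by limma with any score. The 5 lists of partners described here held 79 tested genes, of which 5 had an unadjusted p under 0.05 with startle (6.33%, against 5.59% of all tested probe sets), 2 with locomotion (2.53%, against 2.93%), 1 with sugar feeding (1.27%, against 2.13%), 3 with prepulse inhibition (3.80%, against 7.41%) and 8 with plus maze (10.1%, against 6.95%). Polycomb genes other than Ezh had positive slopes in 33.3% of 18 with startle (median -0.029), against 37.7% of all tested probe sets, and in 22.2% with prepulse inhibition (median -0.025), against 41.3%. Phc3, of the Polycomb complex that compacts chromatin, had -0.09 ± 0.02 with prepulse inhibition (p = 0.00312, limma adjusted p = 0.630), and Ring1, a ubiquitin ligase, 0.07 ± 0.03 with startle. Phc1 had 0.13 ± 0.06 with locomotion.

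Of the 5 partner genes with an unadjusted p under 0.05 for startle, 3 were among the 14 corepressor and NuRD partners. They were Sin3b (-0.09 ± 0.03), Tbl1x (-0.11 ± 0.05) and Tbl1xr1 (-0.14 ± 0.05), all subunits of deacetylase complexes. In this 1 of the 5 lists that is 21.4%, against 5.59% of all tested probe sets and 5.14% of tested genes. With sugar feeding and with prepulse inhibition 0 of the 14 reached it, and with locomotion and with plus maze 1 each. Tbl1x had 0.14 ± 0.04 with locomotion. Of 17 other methyltransferases and partners, Rbbp5, a subunit shared by the Kmt2 complexes, had -0.08 ± 0.03 with startle, and Prmt2 and Nsd2 had -0.11 ± 0.04 and -0.09 ± 0.04 with prepulse inhibition. Of 10 other acetyltransferases and sirtuins, Meaf6 had -0.07 ± 0.02 with sugar feeding. Of 20 other SWI/SNF and ISWI subunits 0 had an unadjusted p under 0.05 with any of the 4 scores of all 10 rats. Of the 8 partner genes with an unadjusted p under 0.05 for plus maze, the steepest was Ing3, a subunit of acetyltransferase complexes, at -0.18 ± 0.04 (limma adjusted p = 0.559), Rnf2, Hat1, Bcl7b, Ep300, Mta1 and Pcgf3 lay from -0.14 to -0.09, and Baz2b had 0.08. Without rat 5 the slopes of these 8 lay from -0.03 to 0.03, and 1 partner gene of the 79, Mta2 at 0.19, had an unadjusted p under 0.05 (named after its value was seen). Of all tested probe sets 2.31% did without rat 5.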

How the data were processed

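Expression in the prefrontal cortex of 10 rats was read on 1 Affymetrix array per rat. The deposited values are log2 summaries per probe set, made by the authors with GCRMA under R 2.6.2, per the submitters' processing notes. GCRMA corrects background by probe sequence, and as usually run it normalises probes by quantiles before it summarises them. Upper quartiles of the deposited arrays still ran from 8.12 to 8.25. Gene names are those of the platform annotation. 80 of 81 gene numbers matched RefSeq (GRCr8). After 57 control probe sets were left out, the upper 50% by mean were tested.

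Each score was scaled to an SD of 1, and limma 3.58.1 (R 4.3.3) gave the slopes (lmFit, eBayes, two-sided, Benjamini-Hochberg over 15521 probe sets, threshold 0.05). The procedure was also run on simulated data, but with planted slopes larger than any member slope found here. That run therefore does not show whether slopes of the size reported would be detected. Named genes were, for each score and direction, the 5 members (3 for plus maze) of smallest p whose slope kept its sign without any single rat, the 8 and 4 of largest and smallest SD, a panel, those with 3 or more tested probe sets, and partner genes of unadjusted p under 0.05. Marker scores are means of centred log2 values. Members and lists were chosen with earlier results of these data known. Each p-value sets a slope against the spread left between these rats, all of 1 strain, and does not extend to other strains. Alternatives were other filters (none, or a mean of 6), scalings, covariates, tests, ranks, averaged probe sets and left-out rats.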

Additional observations from a re-analysis of the deposited data

Results flagged for a closer look

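The values of 4 of the 67 tested members held a rat that stood apart from the others by a Dixon ratio, the gap to the nearest rat divided by the whole range, above 0.466. Chance flags about 1 in 20 genes, and 4 of 67 is near that. Smarcad1, a remodeller used in DNA repair and silencing, had a ratio of 0.606, with 6.87 log2 in rat 10 and 6.47 to 6.62 in the other rats. Kmt2d, the MLL4 methyltransferase of enhancers, had 0.526, with 11.44 in rat 2 and 10.94 to 11.18 in the others. Setd4 had 0.486, with 5.18 in rat 1 and 4.81 to 5.00 in the others. Kat7, the HBO1 acetyltransferase, had 0.475, with 8.66 in rat 2 and 8.34 to 8.51 in the others. Their slopes with startle were 0.03, -0.06, -0.05 and -0.05 in that order.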

How the results depend on the processing

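No paired analysis was possible because the rats form 1 group with 1 array each. Under all alternatives run, 0 members passed an adjusted p of 0.05 with any score, and the smallest adjusted p of a member was 0.226, for locomotion without rats 4, 7 and 10. The median startle slope of the members was 0.0039 after quantile normalization, -0.0025 with spike-ins as a covariate and 0.0039 with 4 scores in 1 model. That of locomotion was 0.0076, 0.0065 and 0.046 in the same settings, and that of sugar feeding was -0.042 with 4 scores in 1 model. Without single rats the medians ran from -0.030 to -0.0086 for startle, 0.014 to 0.031 for locomotion, 0.013 to 0.031 for sugar feeding, -0.025 to -0.0041 for prepulse inhibition and -0.012 to 0.013 for plus maze. Counts of members with an unadjusted p under 0.05 ran without single rats from 2 to 6 for startle, 0 (without rat 1) to 12 (without rat 4) for locomotion, 0 to 7 (without rat 3) for sugar feeding, 0 (without rat 1) to 7 (without rat 5) for prepulse inhibition and 0 (without rat 5) to 6 for plus maze. Under the other alternatives they ran from 0 to 4, 0 to 8, 0 to 1, 0 to 6 and 1 to 9 in the same order. The share of all tested probe sets moved too. For startle without rat 9 the members had 8.96%, against 8.23% of all. For locomotion the shares were 17.9% and 8.38% without rat 4, and 11.9% and 8.56% without rats 4, 7 and 10. They were 10.4% and 6.69% for sugar feeding without rat 3, and 10.4% and 9.17% for prepulse inhibition without rat 5. For plus maze with no filter they were 11.1% and 6.44%. Of 300 slopes of named members over the 5 scores, 53 changed sign after quantile normalization, 50 with the spike-in covariate and 51 without rat 5, and of the 240 fitted with 4 scores in 1 model 78 did. The cause of these changes was not tested. The median SD over rats was 0.12 under both other scalings. Signal near background limits the members of low mean.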

Other observations

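Of the 81 members 14 lay below the filter and were given no slope: Brd3os, Chd1l, Chd2, Ezh2, Hdac7, Hdac10, Kat14, Kdm4d, Kdm8, Kmt5c, Setd2, Setd6, Setdb2 and Smarcal1. Their means ran from 1.77 log2 for Kmt5c to 3.985 for Chd2, whose mean equalled that of the lowest probe set kept at this rounding and ranked after it. Of these 14 genes, 12 had an SD under 0.06. Ezh2, the Polycomb methyltransferase of dividing cells, ran from 3.14 to 3.29, and Setd2, which methylates histones along transcribed genes, from 3.84 to 3.91. Such values lie where the array does not separate a transcript from background, and they do not show that a gene is silent. Smarcal1, of replication fork repair, was lowest at 3.77 in rat 1 and highest at 4.26 in rat 7.

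Writers and readers of DNA methylation, the mark laid on the CG dinucleotide itself, had 8 tested genes, of which 0 passed by limma with any score. Their startle slopes were positive in 4 and negative in 4, with a median near 0, and their prepulse inhibition slopes had a median of 0.025. Tet2 and Tet3, oxidases that start the removal of that mark, had 0.13 ± 0.06 with startle (SE, n = 10; p = 0.0416, limma adjusted p = 0.808) and 0.12 ± 0.05 with locomotion (p = 0.0434, limma adjusted p = 1.00).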
